A study of Mus musculus with 2 samples.

Results

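The astrocyte homeostatic transporters and channels are 9 of the 19070 genes measured in each of 2 mouse brain sections, chosen by name. They are Aqp4, Slc1a2, Slc1a3, Kcnj10, Gja1, Gjb6, Glul, Aldh1l1 and Slc6a11, and each is named by 1 entry of the gene list. The sections came from male mice with the genotype label C57Bl6, given as C57BL/6J in the study's methods, and an age label of 3 months, 1 brain taken 3 days and 1 taken 28 days after controlled cortical impact (CCI), a focal injury made by driving a piston into the exposed cortex of 1 hemisphere. The operation was done under ketamine and medetomidine with buprenorphine and local bupivacaine, and the labels give no further treatment. Neither section is from an uninjured or sham brain, so the side of the same section opposite the impact was the reference. Visium HD counts hybridised probe pairs as unique molecular identifiers (UMIs) on a grid of squares, here bins of 16 µm, each of which can hold parts of several cells. With 1 section per group, no difference between the times or from a normal brain could be tested, and every interval given is a 95% interval for counting error alone.

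Astrocytes keep the fluid around neurons fit for signalling. They take up the transmitters glutamate and GABA after release, turn glutamate into glutamine for return to neurons, buffer the potassium that firing neurons shed, and pass ions and metabolites from cell to cell through gap junctions. Water and potassium channels gather in the end-feet that astrocytes set on blood vessels and on the surface of the brain. Slc1a2 and Slc1a3 encode the main glutamate transporters of astrocytes, and Glul encodes glutamine synthetase. Slc6a11 encodes a GABA transporter. Aqp4 encodes the water channel of the end-feet and Kcnj10 an inwardly rectifying potassium channel. Gja1 and Gjb6 encode the connexins that form astrocyte gap junctions, and Aldh1l1 encodes an enzyme of folate metabolism that is widely used as an astrocyte marker.

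Promoters of the members are shown because the transcripts were compared as a group and 2 of the promoters hold a short element known from stress and cytokine responses. RefSeq promoters of build GRCm38.p6, of 300 bases each, were matched for 8 members, and none was matched for Aqp4. Searched were TTCNNNGAA, the element of STAT factors, TGANTCA, the element of AP-1, and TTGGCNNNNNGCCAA, the element of nuclear factor I. Each reads the same on both strands, and the 3 share no overlapping match in these promoters. Capitals mark a match, and sequences run 5′ to 3′ on the strand of the gene. The promoter of Slc1a3 at chr15:8710758-8711057 (minus strand) holds 1 STAT element, which 8.30% of all 32851 promoters hold. The promoter of Gja1 at chr10:56377050-56377349 (plus strand) holds 1 AP-1 element, which 7.81% hold. The promoter of Slc6a11 at chr6:114130991-114131290 (plus strand), shown because this gene had the lowest lesion ratio of the members, holds none of the elements. The nuclear factor I element stood in 0.0365% of all promoters and in none of the 8. A match is a run of letters and not a binding site, and no binding was measured.
Slc1a3: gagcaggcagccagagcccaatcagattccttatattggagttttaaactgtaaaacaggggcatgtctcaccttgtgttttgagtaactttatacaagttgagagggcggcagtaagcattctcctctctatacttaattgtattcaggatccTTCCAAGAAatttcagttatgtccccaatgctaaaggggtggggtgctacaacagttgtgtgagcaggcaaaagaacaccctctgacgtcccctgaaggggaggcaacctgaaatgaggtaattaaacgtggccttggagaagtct
Gja1: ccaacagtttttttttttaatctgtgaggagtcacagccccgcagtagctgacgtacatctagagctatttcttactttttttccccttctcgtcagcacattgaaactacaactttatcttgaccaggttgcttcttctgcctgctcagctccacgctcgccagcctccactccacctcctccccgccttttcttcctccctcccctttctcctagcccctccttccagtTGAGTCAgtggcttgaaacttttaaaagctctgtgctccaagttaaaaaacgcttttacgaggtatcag
Slc6a11: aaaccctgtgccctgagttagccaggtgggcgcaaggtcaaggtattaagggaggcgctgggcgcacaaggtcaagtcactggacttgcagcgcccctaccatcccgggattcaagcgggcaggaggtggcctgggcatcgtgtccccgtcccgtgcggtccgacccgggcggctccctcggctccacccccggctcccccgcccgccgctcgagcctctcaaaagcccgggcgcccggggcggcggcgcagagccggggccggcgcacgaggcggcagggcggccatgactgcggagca

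The 3 days section held 121967 bins with 120615873 UMIs and the 28 days section 105589 bins with 82422389 UMIs, at medians of 836 and 596 UMIs per bin. The 9 members gave 0.299% and 0.330% of these UMIs. Levels are given as CPM, UMIs scaled to a common total within the same area, and are compared only within a gene. The lesion zone was the part of the injured side rich in 6 phagocyte genes (Cd68, Lyz2, Ctsz, Lgals3, Cd52 and Laptm5), and its reflection across the side line was the mirror zone. The zone held 8506 bins at 3 days and 13559 bins at 28 days. The mirror zone had more UMIs per bin than the lesion zone, a mean of 937 against 607 at 3 days and of 642 against 528 at 28 days. The array captured 2.08 mm of the injured side at 3 days and 3.84 mm at 28 days. The reflection did not match tissue. At 3 days 2152 lesion bins and 0 mirror bins carried striatal markers, 0 and 1439 thalamic, 0 and 1376 hippocampal pyramidal and 552 and 2002 deep cortical markers. At 28 days 1853 and 292 bins carried ventricular markers, 1719 and 80 dentate markers and 2720 and 4635 thalamic markers. Meningeal markers, such as Dcn, were carried by 1151 lesion and 368 mirror bins at 3 days and 773 and 351 at 28 days. In the lesion zone, fewer cells of a type and less RNA per cell cannot be told apart.

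At 3 days the members split. Aldh1l1, Slc1a3, Aqp4, Kcnj10, Gja1 and Glul had higher CPM in the lesion zone than in its mirror, and Slc6a11, Gjb6 and Slc1a2 were lower. The folate enzyme Aldh1l1 had 372 CPM in the zone and 124 CPM in its mirror, a log2 ratio of 1.58 (interval 1.47 to 1.69). The glutamate transporter Slc1a3 had 521 and 223 CPM, a log2 ratio of 1.22 (1.14 to 1.31). The other main glutamate transporter, Slc1a2, went the other way, with 630.1 and 1066 CPM and a log2 ratio of -0.76 (-0.82 to -0.70). The GABA transporter Slc6a11 was the lowest, with 50.9 and 175 CPM and a log2 ratio of -1.78 (-1.97 to -1.59), at percentile 2.06 of the genes compared. The gap junction genes were also divided, Gja1 with 213 and 145 CPM and Gjb6 with 27.1 and 49.3 CPM. Their log2 ratios were 0.55 (0.43 to 0.67) and -0.86 (-1.15 to -0.58), and Gjb6 rested on 140 and 392 UMIs. The channels Aqp4, with 445 and 281 CPM, and Kcnj10, with 234 and 154 CPM, had log2 ratios of 0.66 (0.58 to 0.75) and 0.60 (0.49 to 0.72). Glutamine synthetase, Glul, had 389.5 and 279 CPM, a log2 ratio of 0.48 (0.39 to 0.57).

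The median log2 ratio of the 9 members at 3 days was 0.55, beside 0.06 over all genes compared. All 9 passed the minimum of 200 UMIs over both zones used for counts across genes. A log2 ratio of at least 1 was found for 2 members, against 11.6% of the 9938 genes compared, and of at most -1 for 1 member, against 8.57%. Counted per bin and not per UMI, 3 of the 9 were above 0 and the median was -0.08, so the 3 days direction of Kcnj10, Gja1 and Glul depended on the scale. With the opposite side weighted to the tile classes of the lesion zone, Gja1 (-0.62) and Glul (-0.25) were lower and the median was -0.25, and with a zone drawn at the 95th percentile Gjb6 was higher (0.50). Per 100 bins, Aqp4 had 27.0 UMIs in the zone and 26.4 in its mirror. Slc1a3 and Aldh1l1 were higher on either scale, and Slc1a2, Gjb6 and Slc6a11 lower on either. Other cell markers moved too, and zone levels are given before mirror levels. The summed level of 6 neuron markers was 1848 CPM in the zone and 6828 CPM in its mirror with 5 of the 6 lower, and that of 5 microglia markers 1645 and 528 CPM with all 5 higher. Fibroblast markers summed to 357 and 63.5 CPM, endothelial markers to 397 and 154 CPM, mural cell markers to 245 and 111 CPM and 4 oligodendrocyte markers to 7976 and 3012 CPM. All members of each list were higher by CPM, but the interval of Slco1a4, 0.23 (-0.02 to 0.48), included 0. Choroid plexus markers summed to 1089.9 and 4066 CPM, all 3 lower, and ependymal markers to 186 and 134 CPM. Of the markers in these lists Lum, Kcnj8 and Folr1 were under the minimum of 200 UMIs. Another 5 astrocyte markers (Sox9, S100b, Aldoc, Fgfr3 and Ntsr2) summed to 1398 and 1924 CPM, with 3 higher and 2 lower. No marker of these lists was at 0 in either zone. Their part in the ratios was not tested.

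At 28 days Aqp4 stood out. It had 1501 CPM in the zone and 198 CPM in its mirror, a log2 ratio of 2.92 (2.84 to 2.996) and a fold of 7.56, at percentile 97.3 of the genes compared. Slc1a3 had 683 and 257 CPM, a log2 ratio of 1.41 (1.34 to 1.49). Aldh1l1 had 233 and 104 CPM, a log2 ratio of 1.17 (1.05 to 1.29). The connexin Gja1 had 515 and 236 CPM, a log2 ratio of 1.13 (1.05 to 1.21), and Gjb6 had 121 and 76.1 CPM, a log2 ratio of 0.66 (0.51 to 0.82). Both gap junction genes were thus above the mirror zone at this time. Slc6a11 was the only member below it, with 222 and 358 CPM and a log2 ratio of -0.69 (-0.78 to -0.60). Slc1a2 had 1517 and 1345 CPM, a log2 ratio of 0.17 (0.13 to 0.21), and Kcnj10 had 244 and 203 CPM, a log2 ratio of 0.27 (0.17 to 0.36). Glul had 382 and 371 CPM, a log2 ratio of 0.04 whose interval, -0.03 to 0.12, includes 0.

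The median of the 9 members at 28 days was 0.66, beside -0.07 over all genes compared, and 0.38 per bin. A log2 ratio of at least 1 was found for 4 members, against 10.7% of 10206 genes, and of at most -1 for 0 members, against 7.96%. Per bin, Slc1a2 (-0.11), Kcnj10 (-0.02) and Glul (-0.24) were below 0, while Aqp4, Slc1a3, Gja1, Gjb6 and Aldh1l1 were above 0 and Slc6a11 was below on either scale. Neuron markers summed to 2217 CPM in the zone and 6067 CPM in its mirror with all 6 lower, and microglia markers to 3971 and 321 CPM with all 5 higher. Fibroblast markers had 297 and 37.4 CPM and ependymal markers 171 and 39.8 CPM, all higher by CPM, and choroid plexus markers 199.7 and 1569 CPM, all lower by CPM. Of these Lum, Folr1 and Kl were under the minimum of 200 UMIs, and the interval of Folr1, -0.59 (-1.27 to 0.06), included 0. Endothelial markers had 303 and 214 CPM, mural cell markers 226 and 165 CPM and 4 oligodendrocyte markers 6353 and 5999 CPM. The 5 other astrocyte markers summed to 4256 and 2697 CPM, all 5 higher. Their part in the ratios was not tested.

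**Figure D1:**
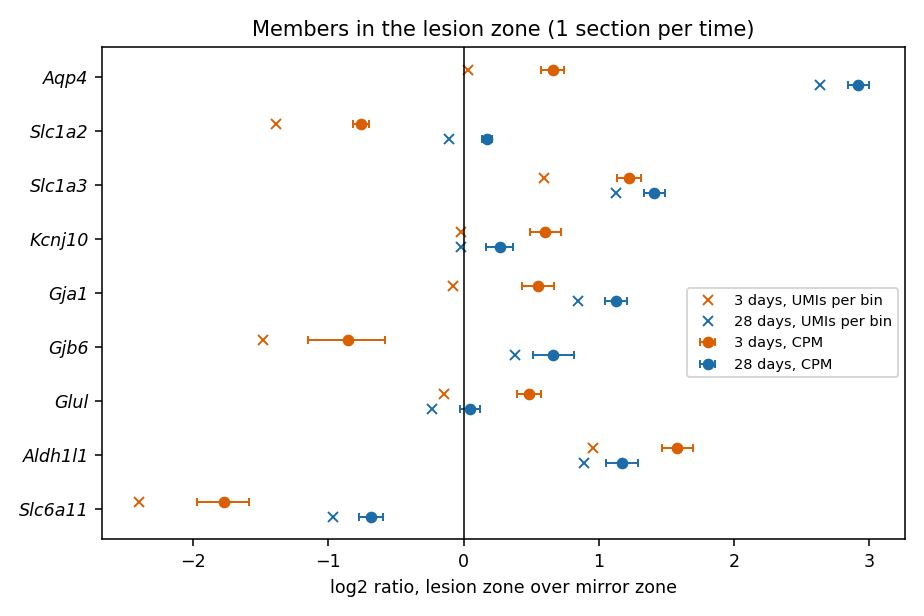
Log2 ratio of the lesion zone over the mirror zone (x axis) for the 9 members (y axis) at 3 days (orange) and 28 days (blue). Filled points with bars are ratios of CPM with 95% counting intervals, and crosses are ratios of UMIs per bin. Aqp4 at 28 days lies farthest right, at 2.92, and Slc6a11 at 3 days farthest left on the CPM scale, at -1.78.

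The ratio at 28 days minus the ratio at 3 days was positive for 6 members and negative for 3. It was above 0 for 41.8% of the 9680 genes compared at both times, with a median of -0.08. Aqp4 had the largest difference among the members, 2.26 (2.15 to 2.37), followed by Gjb6 with 1.52 (1.21 to 1.84), Slc6a11 with 1.09 (0.88 to 1.30) and Slc1a2 with 0.93 (0.86 to 1.002). Gja1 had 0.58 (0.43 to 0.72) and Slc1a3 0.19 (0.07 to 0.30). Kcnj10 (-0.34), Aldh1l1 (-0.41) and Glul (-0.44) had higher ratios at 3 days. Slc1a2 and Gjb6 were below the mirror zone at 3 days and above it at 28 days. The levels on the whole opposite side differed little between the sections, by -0.11 to 0.34 on the log2 scale, the highest being that of Slc6a11 (268 CPM at 3 days, 338 CPM at 28 days). Levels in the mirror zone, the reference of these ratios, differed more. Slc6a11 had 175 CPM there at 3 days and 358 CPM at 28 days, Gja1 145 and 236 CPM, and Gjb6 49.3 and 76.1 CPM. Aqp4 had 281 and 198 CPM. Aqp4 and Aldh1l1 had lower mirror levels at 28 days, and the other members higher ones. These differences are between 2 animals, and their zones held different tissue.

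With distance from the border of the zone, the members followed different courses. Bands of the injured side were each set against their reflected band. Aqp4 at 3 days had 31.4 CPM deeper than 400 µm inside the zone and 79.8 CPM in the reflected band, from 6 and 58 UMIs. In the other inner bands it was higher than in the reflection, with 362 against 201 CPM at 200 to 400 µm inside (0.85) and 504 against 337 CPM at 0 to 200 µm inside (0.58), where it had -0.013 per bin. It had 471 against 228 CPM at 0 to 250 µm outside, 409 against 184 CPM at 250 to 500 µm, 286 against 143 CPM at 500 to 1000 µm and 146 against 144 CPM at 1000 to 2000 µm. The log2 ratios outside were 1.05, 1.15, 1.01 and 0.02, so the higher level of Aqp4 reached at least 500 µm beyond the zone and was not seen beyond 1000 µm. At 28 days the ratio was highest in the core. Aqp4 had 1932 against 194 CPM deeper than 400 µm inside, 1881 against 195 CPM at 200 to 400 µm and 1123 against 202 CPM at 0 to 200 µm inside. Outside it had 305 against 119 CPM and 202 against 138 CPM in the nearest bands. The log2 ratios fell from 3.32 and 3.27 beyond 200 µm inside to 2.48 at the inner border. They were 1.36, 0.55 and -0.01 with growing distance outside.

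Aldh1l1 resembled Aqp4 outside the zone at 3 days, with log2 ratios of 1.16, 1.14 and 0.59 up to 1000 µm and -0.06 beyond. Slc6a11 had 152 against 238 CPM at 0 to 250 µm outside at 3 days, a log2 ratio of -0.64, and 354 against 320 CPM at 250 to 500 µm, a log2 ratio of 0.15. With the zone drawn at the 95th percentile these ratios were 0.020 and -0.074, so the course of Slc6a11 just outside depended on the border. Farther out it had 576 against 640.0 CPM at 1000 to 2000 µm, a log2 ratio of -0.15 (-0.21 to -0.10). Inside the zone it was lower in every band, by 1.47 to 2.45 on the log2 scale. At 28 days Slc6a11 had 294 against 342 CPM at 0 to 200 µm inside and 153 against 407 CPM at 200 to 400 µm inside, log2 ratios of -0.22 and -1.42. Its level just outside was higher than in the reflected band, 314 against 246 CPM. Slc1a2 also differed between rim and core at 28 days, with 1895 against 1415 CPM at 0 to 200 µm inside and 878 against 1321 CPM deeper than 400 µm, log2 ratios of 0.42 and -0.59. At 3 days it was lower in all 3 inner bands and still 820.1 against 1095 CPM at 0 to 250 µm outside.

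Deeper than 400 µm inside the zone at 3 days, Slc1a2 and Glul alone reached 200 UMIs over the band and its reflection, with log2 ratios of -1.76 (-2.11 to -1.44) and -0.20 (-0.68 to 0.23). The other 7 rested on 2 to 32 UMIs in the band. Of these Gja1 had a log2 ratio of 0.83 (0.17 to 1.44), or -1.11 per bin, and Slc6a11 (-2.45), Kcnj10 (-1.91) and Aqp4 (-1.24) had intervals below 0. That band had 261 UMIs per bin against 1001 in its reflection, the smallest share of depth among the bands, and its median over 900 genes was -0.59. At 0 to 250 µm outside the zone at 3 days, 2 members were at or above 1, against 7.15% of 9895 genes, and 0 at or below -1, against 3.48%. In the same band at 28 days all 9 log2 ratios were above 0, as were those of 53% of genes, but that of Glul was 0.00. Per bin Slc1a2 (-0.17), Kcnj10 (-0.13) and Glul (-0.25) were below 0 there. By CPM 1 member was at or above 1, against 2.12% of 10076 genes, and 0 were at or below -1, against 0.238%. At 1000 to 2000 µm at 28 days none of the 9 was above 0, against 45.4% of genes, with a median of -0.32 beside -0.02 over all genes. Other markers differed in that band as well. Summed log2 ratios were -0.39 for endothelial, -0.25 for the 5 other astrocyte, -0.07 for microglia and 0.30 for neuron markers. No endothelial, other astrocyte or reported oligodendrocyte marker was higher there. The part of cell mix in these ratios was not tested.

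**Figure D2:**
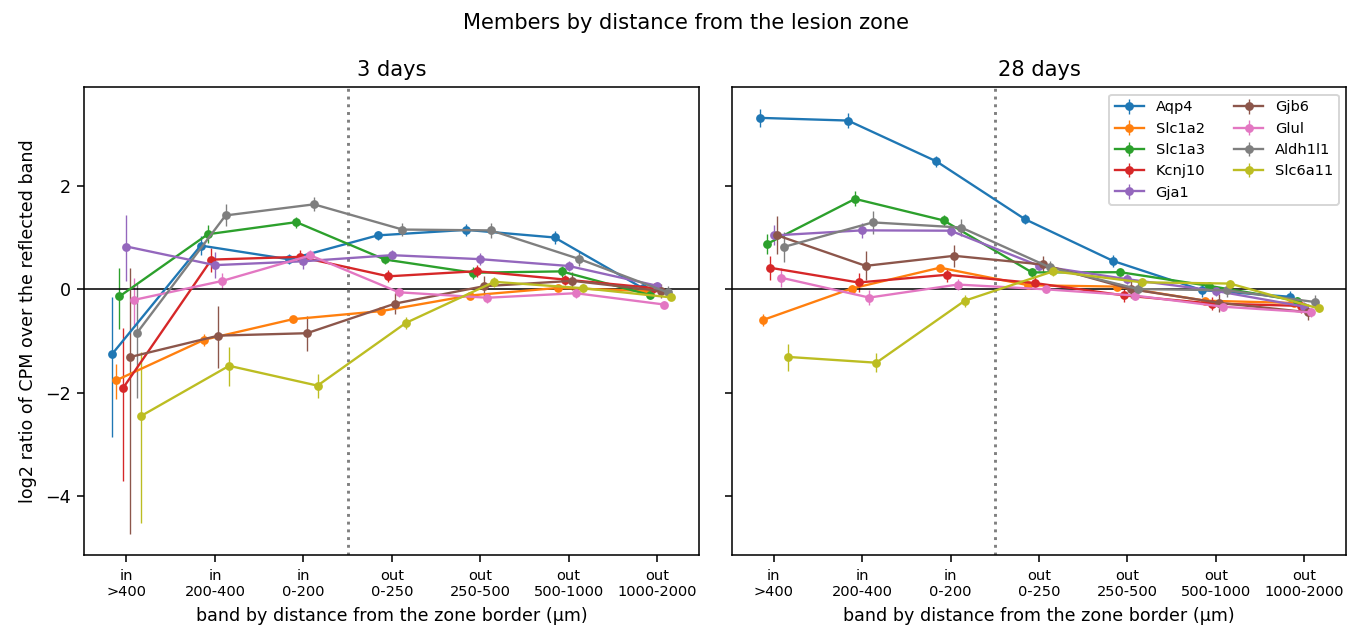
Log2 ratio of CPM of each member in bands of the injured side over the reflected band (y axis), ordered from deep inside the lesion zone (left) to 1000 to 2000 µm outside it (right), with 95% counting intervals. The dotted line is the border of the zone. At 3 days Aqp4 and Aldh1l1 stay above 1 at 250 to 500 µm outside, and at 28 days Aqp4 lies at 3.32 in the core while Slc6a11 lies at -1.30.

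**Figure D3:**
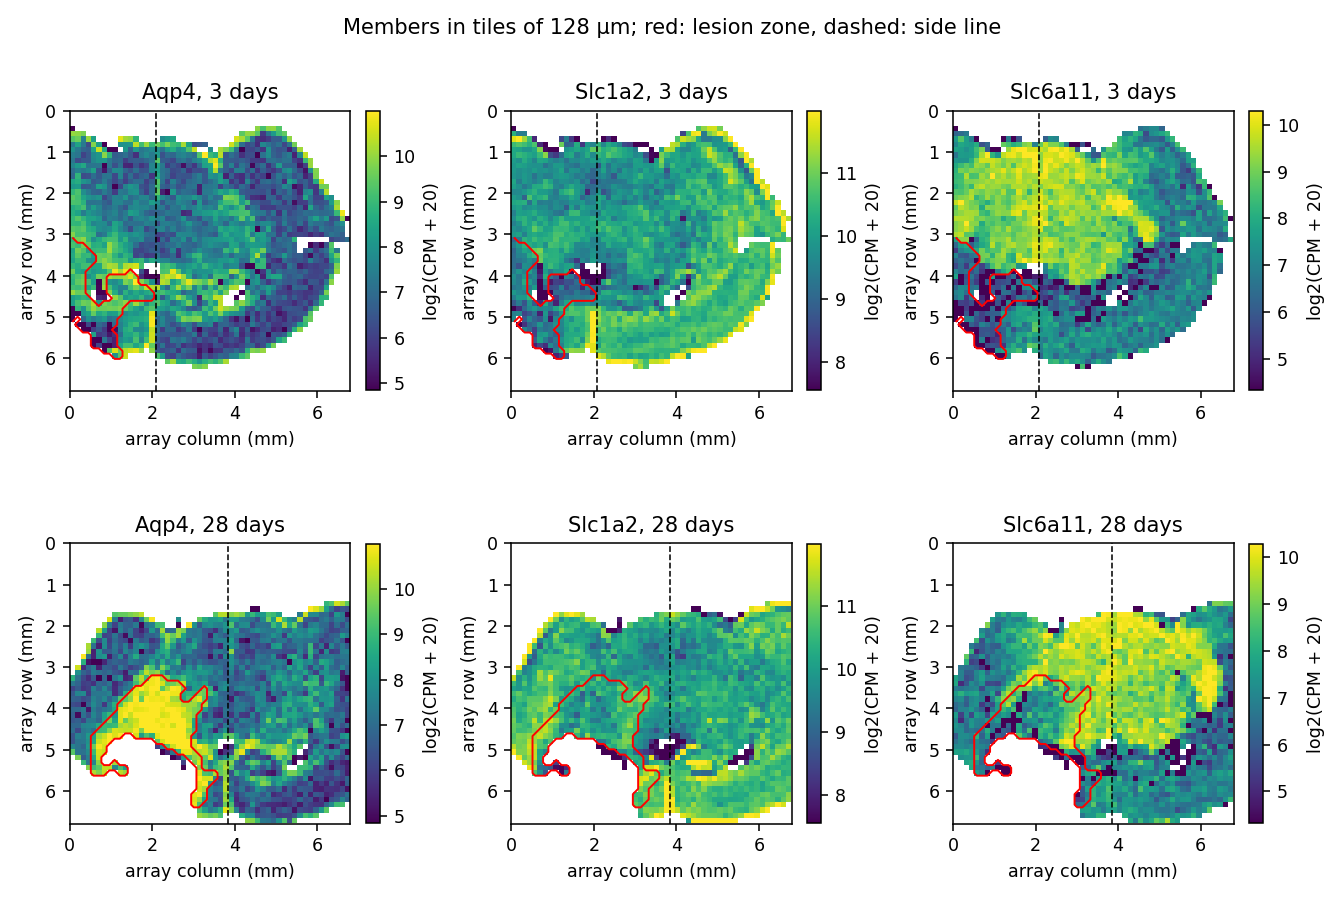
Level of Aqp4, Slc1a2 and Slc6a11 as log2(CPM + 20) in tiles of 128 µm over both sections (axes in mm of the array), with the lesion zone outlined in red and the side line dashed. Aqp4 fills the lesion zone at 28 days but is low in the patch of the zone at the bottom left of the 3 days section, and Slc6a11 is high in the deep grey matter and low in the cortex and, at 3 days, in the zone.

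The members did not share a single anatomical pattern on the opposite side. Tiles of 64 µm of the opposite side were put into classes by marker genes, of which 9 are described, and a class is called here by markers. Slc6a11 had 579 CPM in Prkcd and Tnnt1 tiles (thalamic markers) and 523 CPM in Baiap3 and Zcchc12 tiles (hypothalamic markers) at 3 days. It had 122 CPM in Fezf2 and Tle4 tiles (deep cortical markers) and 102 CPM in Cux2 and Lamp5 tiles (upper cortical markers). The 28 days section gave 599 and 705 CPM in the first pair and 126 and 147 CPM in the cortical classes. Kcnj10 was likewise highest in Prkcd tiles, with 304 CPM at 3 days and 295 CPM at 28 days, and lowest in Cux2 tiles, with 67.8 and 79.2 CPM. Slc1a2 had the other order among these, with 1486 CPM in Fezf2 tiles and 1032 CPM in Prkcd tiles at 3 days and 1504 and 1124 CPM at 28 days. The middle 50% of 128 µm tiles spanned 428 to 694 CPM of Slc6a11 in 199 Prkcd tiles and 81.8 to 158 CPM in 205 Fezf2 tiles at 3 days, so these classes did not overlap in that range.

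Among these 9 classes, tiles with the fibroblast markers Dcn and Lum, which lie along the surface of the brain, had the highest level of 7 of 9 members at either time, a place that 16.6% of 12666 genes shared in the 3 days section and 13.4% of 11822 in the later one. By the median over 128 µm tiles, 7 members at 3 days and 5 at 28 days were highest there, Slc1a2 and Slc1a3 no longer among them at 28 days. Aqp4 had 803 and 541 CPM there, against 79.8 and 74.96 CPM in Fezf2 tiles. Gjb6 had 352 and 252 CPM there, against 35.8 and 44.0 CPM in Fezf2 tiles. The exceptions were Kcnj10 and Slc6a11.

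Some lesion levels lay outside the range of these 9 opposite-side class levels. The class not described also held tiles of the zone. At 3 days Aldh1l1 (372 CPM) was above each of the 9 levels (76.1 to 296 CPM), and Slc6a11 (50.9 CPM) and Slc1a2 (630.1 CPM) were below every one (72.8 to 579 CPM and 675 to 2765 CPM). Of the genes compared at that time 21.8% lay above each class level and 13.2% below, so 3 of 9 members outside the range is a share near that of all genes. At 28 days Aqp4 (1501 CPM, classes from 74.96 to 541 CPM), Slc1a3 (683 CPM, classes from 234 to 586 CPM) and Aldh1l1 (233 CPM, classes from 73.1 to 208 CPM) were above each of the 9 class levels, against 15.3% of genes, and no member was below every one, against 17.1% of genes. Aqp4 at 3 days (445 CPM) lay within the range of the classes, under the Ttr tiles (452 CPM, ventricular markers) and the Dcn tiles.

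**Figure D4:**
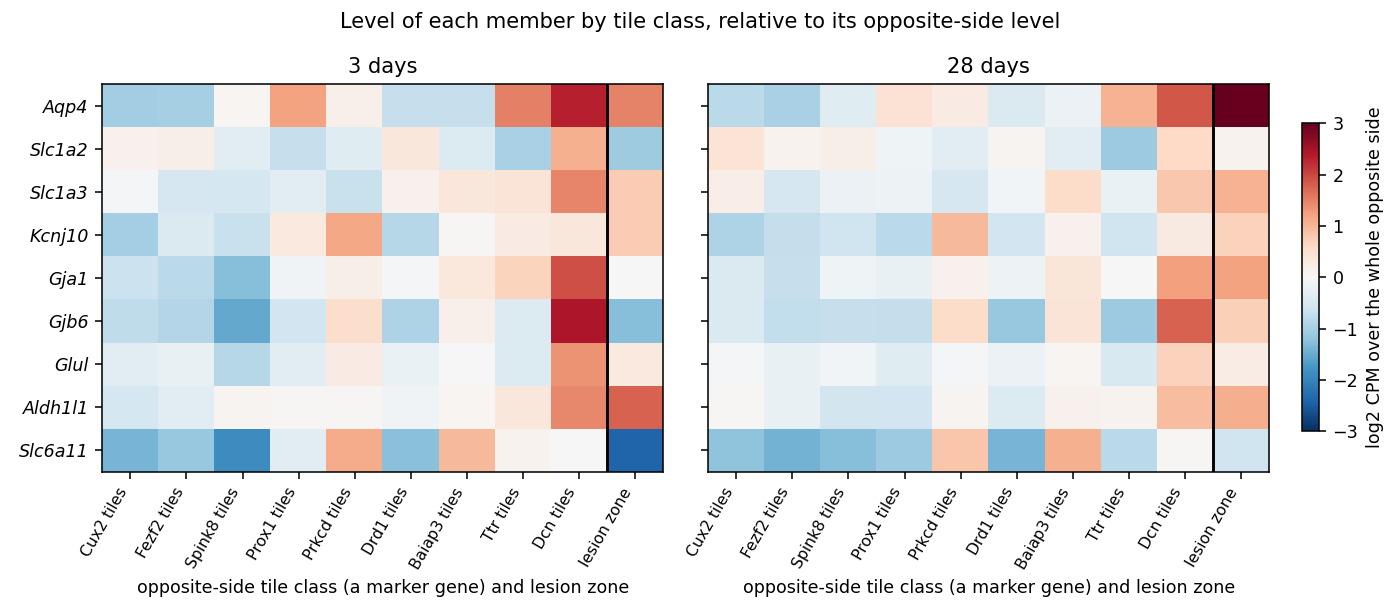
Level of each member (rows) in 9 classes of opposite-side tiles, named by a marker gene, and in the lesion zone (last column), as log2 CPM relative to the whole opposite side, at 3 days and 28 days. Red is higher and blue lower. Slc6a11 and Kcnj10 are highest in the Prkcd or Baiap3 tiles, most other members in the Dcn tiles, and the lesion column of Aqp4 at 28 days is the darkest red of its row.

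Outside the zone and the 250 µm around it, sides were compared within a class. At 3 days Fezf2 tiles of the injured side (915 bins) had 291 CPM of Aqp4 against 79.4 CPM on the opposite side (9249 bins), a log2 ratio of 1.87. Kcnj10 (1.46), Aldh1l1 (1.40), Gja1 (0.88), Slc6a11 (0.80) and Gjb6 (0.61) were also higher there, so 6 members had intervals above 0, against 15% of 8692 genes. Slc1a2 (-0.20) was lower, and the intervals of Slc1a3 (0.13) and Glul (0.13) included 0. Gfap, the filament gene of reactive astrocytes, had 1006 against 108 CPM in these tiles. The injured Fezf2 tiles lay near the midline and those of the opposite side were spread over the hemisphere. With bins kept only where the reflected bin had the same class (522 on each side), the log2 ratios were 2.03 for Aqp4, 2.29 for Aldh1l1, 1.06 for Kcnj10 and 0.72 for Slc6a11. Among the rest, Gja1 (0.87) and Slc1a3 (0.43) were higher, Slc1a2 (-0.19) and Glul (-0.44) lower, and the interval of Gjb6, 0.20 (-0.58 to 1.08), included 0. In Cux2 tiles (718 injured and 12137 opposite bins) Kcnj10 (2.05), Aqp4 (1.78) and Aldh1l1 (1.60) had the highest ratios. Slc1a3 (-0.44) had the lowest, and too few bins had a reflected bin of the same class for matched values. In Prkcd tiles at 3 days Aqp4 had 201 against 146 CPM, a log2 ratio of 0.46 (0.35 to 0.58), and the other 8 members lay between -0.19 and 0.24. The 9 ratios in Baiap3 tiles lay between -0.21 and 0.41. In Ttr tiles Aqp4 went the other way, with 189.9 against 342 CPM, a log2 ratio of -0.85 (-1.09 to -0.61), or -1.05 with bins of matching class, while Slc6a11 (0.75) was higher. In Dcn tiles Slc1a3 (-0.74), Slc1a2 (-0.70) and Glul (-0.62) were lower, Kcnj10 (0.82) was higher, and the interval of Aqp4 (0.08) included 0.

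At 28 days several members were lower in the cortex of the injured side. In Cux2 tiles (4026 and 3813 bins) Gjb6 had a log2 ratio of -1.26 (-1.59 to -0.95) and Kcnj10 of -0.67 (-0.90 to -0.45), 6 others were also lower, and the interval of Aqp4 (0.05) included 0. An interval below 0 was thus found for 8 of 9 members, against 18.6% of 8522 genes, whose median was 0.00. In Fezf2 tiles Kcnj10 (-0.95), Gjb6 (-0.81), Slc6a11 (-0.33) and Glul (-0.31) were lower, while Aqp4 (0.40), Slc1a3 (0.39) and Slc1a2 (0.10) were higher. Kcnj10 was lowest in Drd1 tiles (striatal markers), at -1.23 (-1.68 to -0.81), and Gjb6 (-0.82) and Slc6a11 (-0.75) were lower there as well. With only bins of matching class these were -1.82, -0.57 and -1.01, and the interval of Gjb6 included 0. Too few cortical bins matched at this time for such values. Kcnj10 was thus higher on the injured side in cortical tiles at 3 days and lower at 28 days, in different animals and over different parts of the cortex. The 9 log2 ratios lay between -0.24 and 0.25 in Prkcd tiles and between -0.32 and -0.01 in Baiap3 tiles. In Ttr tiles Gjb6 (0.84) and Slc6a11 (0.58) were higher and Slc1a2 (-0.30) and Aqp4 (-0.29) lower. With bins of matching class Aqp4 had -1.24 (-1.64 to -0.87) there, and the intervals of Gjb6 (0.36), Slc6a11 (0.10) and Slc1a2 (-0.17) included 0. In Dcn tiles the 9 lay between -0.07 and 0.42, and in Spink8 tiles (hippocampal markers) between -0.72 and 0.47.

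Because several members are known from the perivascular end-foot, bins with at least 1 UMI of Cldn5, Pecam1, Flt1 or Slco1a4, which mark endothelial cells, were compared with the other bins after thinning each bin to 300 UMIs. On the opposite side all 9 members had log2 ratios above 0 at both times, beside a share of 46.8% among 10699 genes in the 3 days section and 47.3% among 9591 in the later one. The interval lay above 0 for all 9 at 3 days, against 12.5% of genes, and for 8 of 9 at 28 days, against 8.14%. Aqp4 had 309.5 CPM in 4297 endothelial bins and 214 CPM in 67286 other bins at 3 days, a log2 ratio of 0.53 (0.38 to 0.68). Gjb6 had a log2 ratio of 0.52 (0.27 to 0.76) at 3 days and 0.60 (0.30 to 0.88) at 28 days. The lowest was Slc6a11 at 3 days, with 0.27 (0.13 to 0.39), and Kcnj10 at 28 days, with 0.13 (-0.10 to 0.35). In the lesion zone at 3 days the interval excluded 0 for Gja1 alone, at 0.47 (0.03 to 0.86), and at 28 days for Aqp4 alone, at 0.20 (0.06 to 0.34). The interval lay above 0 for 5.34% and 4.25% of genes there. At 0 to 250 µm outside the zone, no thinned interval excluded 0 at 3 days, and at 28 days those of Gjb6 (0.99), Aqp4 (0.61), Slc1a3 (0.58), Slc6a11 (0.55) and Gja1 (0.53) lay above it. The share of genes with such an interval was 3.38% at 3 days and 4.23% at 28 days. Unthinned, 7 of the 9 members were lower in endothelial bins of that band at 3 days, from -0.25 to -0.50, against 18.2% of genes, and none was higher there with an interval that excluded 0. At 28 days 4 of the 9 were lower in that way, Slc1a2 (-0.13), Gja1 (-0.28), Glul (-0.27) and Slc6a11 (-0.27), against 17.3% of genes. Thinning left out 1664 of the 8506 zone bins at 3 days and 4404 of the 13559 at 28 days. Without it, Gja1 at 3 days (0.24) and Aqp4 at 28 days (0.10) were again higher in the zone, as was Slc1a3 at 28 days (0.51). Kcnj10 (-0.37) and Glul (-0.26) at 3 days and Glul (-0.28) and Slc6a11 (-0.30) at 28 days were lower, all with intervals that excluded 0. On the opposite side thinning left out 8918 bins at 3 days and 9532 at 28 days. Without it, the opposite-side log2 ratios were 0.15 to 0.51 at 3 days and -0.08 to 0.24 at 28 days, where the intervals of Aqp4, Slc1a3, Kcnj10, Gja1 and Glul included 0 and Slc6a11 was lower in endothelial bins.

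Over 128 µm tiles of the opposite side the members correlated weakly with each other. Over 1273 tiles at 3 days the 36 pairs had a median Pearson r of 0.28 of log2 CPM, from 0.05 (Slc1a3 and Kcnj10) to 0.46 (Slc1a3 and Gja1). Over 836 tiles at 28 days the median was 0.24, from 0.005 (Slc1a2 and Slc6a11) to 0.53 (Slc1a2 and Slc1a3). Gja1 was closest to the mean of the other 8, with r of 0.62 and 0.61. Among the genes outside the group most like the mean of the members at 3 days were Aldoc (r of 0.75), an astrocyte enzyme of glycolysis, Sparcl1 (0.72), Gpr37l1 (0.69) and Atp1b2 (0.68). At 28 days Aldoc (0.80), Sparcl1 (0.78), Ndrg2 (0.69) and Atp1b2 (0.69) were among them. Tiles share their section and their depth, with which the mean of the members had r of -0.31 and -0.39, and neighbouring tiles share tissue, so these are descriptions. Counting error also lowers r, most for members with few UMIs per tile such as Gjb6, and was not corrected for.

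Other genes of the same functions were counted in the zones. The share of all genes whose zone interval excluded 0 was not computed, so these counts and those of astrocyte identity genes describe the lists alone. For potassium, water and end-foot genes, all 11 counted here passed the minimum. At 3 days 6 were higher and 0 lower with an interval that excluded 0, and at 28 days 8 were higher and 1 lower, with medians of 0.39 and 0.40. Per bin at 3 days Mlc1 (0.53), Slc12a2 (0.30) and Hepacam (0.26) stayed above 0. Atp1b2 (-0.20), Dag1 (-0.24) and Slc4a4 (-0.08) turned. At 28 days Slc12a2, higher by CPM (0.25), had -0.035 per bin. Mlc1, which encodes an end-foot membrane protein, had the highest ratio at both times, 211 against 94.4 CPM (1.16) and 301 against 101 CPM (1.58). Of 8 genes of glutamate and glutamine handling, 7 passed. Among those that passed Slc38a3, a glutamine transporter of astrocytes, was highest, with 181 against 105 CPM (0.78) and 288 against 119 CPM (1.27). Slc38a1, a glutamine transporter of neurons, was lowest, with 194 against 252 CPM (-0.38) and 268 against 289 CPM (-0.11). Slc38a5, under the minimum, had 1.40 (0.94 to 1.87) at 3 days. The 7 that passed had 5 higher and 1 lower at 3 days and 6 higher and 1 lower at 28 days. Per bin at 3 days only Slc38a3 (0.16) stayed above 0, and Slc7a11 (-0.06), Glud1 (-0.30), Slc38a2 (-0.03) and Slc7a5 (-0.08) turned. At 28 days Slc38a2 (-0.11) turned per bin.

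Of 5 other GABA genes, 2 passed at 3 days and 3 at 28 days. Both that passed at 3 days (Abat and Aldh5a1) and all 3 at 28 days (with Maob) were lower in the lesion zone. Abat, which encodes the enzyme that breaks down GABA, had 77.1 against 124 CPM (-0.69) at 3 days and 184 against 209 CPM (-0.18) at 28 days. The genes under the minimum did not share that direction. At 28 days the GABA transporter genes Slc6a13, with 74 and 16 UMIs (2.33), and Slc6a12, with 15 and 3 UMIs (2.31), were higher in the zone, and Maob at 3 days had 0.33 (-0.10 to 0.76). Of 6 other connexin genes, 4 passed at 3 days and 5 at 28 days. At 3 days all 4 that passed were higher, led by the oligodendrocyte connexin Gjb1 with 270.0 against 53.6 CPM (2.33). Under the minimum, Gjd2 was lower at that time, -2.30 (-3.47 to -1.40) from 10 and 79 UMIs. The interval of Gjc1, -0.24 (-0.88 to 0.37), included 0. At 28 days 2 were higher, Gjb2 with 60.8 against 11.02 CPM (2.46) and Gjb1 (0.30), and Gjc1 (-1.21) was lower. Tjp1, which encodes a junction scaffold and is no connexin, was higher at both times (0.83 and 0.52).

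Astrocyte identity genes were mixed at 3 days, with 7 of 10 higher and 3 lower. Per bin Sox9, Nfia, Gpr37l1 and Id4 stayed above 0 at that time, and S100b (-0.24), Fgfr3 (-0.15) and Slc4a4 (-0.08) turned. Sox9, a transcription factor of astrocytes, had 169.7 against 92.7 CPM (0.87), and Ntsr2, a receptor gene of astrocytes, had 23.2 against 57.6 CPM (-1.30). At 28 days 9 of 10 were higher by CPM, Sox9 with 234 against 56.7 CPM (2.04), and Slc7a10 was lower (-0.80). Of the 9, Fgfr3 (0.21 by CPM) had -0.074 per bin. Of 13 reactive astrocyte genes 12 passed at each time and all 12 had a log2 ratio of at least 1, with medians of 2.16 at 3 days and 5.41 at 28 days, beside 0.55 and 0.66 for the 9 members. The 13 summed to 11101 CPM in the zone and 2352 CPM in its mirror at 3 days, and to 11127 and 340 CPM at 28 days. The sums thus differed between the times in the mirror and hardly in the zone. Single genes did not follow the zone sum. Vim had 5078 CPM in the zone at 3 days and 1416 to 3578.5 CPM in its inner bands at 28 days. Gfap had 3490 CPM in the zone at 3 days and 4402 to 6474 CPM in those bands at 28 days. In the 3 days mirror zone Gfap had 1062 CPM and Serpina3n 429 CPM, against 314 and 78.3 CPM on the whole opposite side. Whether the opposite side responded to the injury was not tested. Some of the 13, such as Vim, Cd44 and Timp1, are also made by immune and stromal cells.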

How the data were processed

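Probe UMIs were measured in 2 formalin-fixed, paraffin-embedded sections. Per the file headers, the authors made the deposited counts with Space Ranger 4.0.1, and per the labels with build mm10. They are raw UMI counts per gene and bin with no normalization. Members and gene lists were chosen with earlier results of these data known. Bins under 100 UMIs were left out (1.93% and 2.15%), as in that work. Sides were split at array columns 130 and 240. Lesion tiles (4 by 4 bins) had a phagocyte share, averaged over 5 by 5 tiles, higher than in 99% of opposite-side tiles, in patches of at least 25 tiles. Of the lesion bins, 92.3% and 86.6% had a mirror bin. Log2 ratios had 0.5 UMI added to each sum, with exact conditional binomial intervals. Classes were the marker list with the highest mean z-score above 0.5. Named genes were all members, the highest and lowest of each list, further list genes for illustration and genes most like the members. A few genes and 1 tile class are not reported here, and list counts leave those genes out. Alternatives are listed with the limits. Scripts were tested on simulated data. Sums and intervals were computed in Python 3.11.15 (numpy 2.4.6, scipy 1.17.1, pandas 2.3.3) and TMM factors in edgeR 4.0.16 under R 4.3.3, and plots were drawn with matplotlib 3.10.9.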

Additional observations from a re-analysis of the deposited data

Results flagged for a closer look

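Slc1a2 and Gjb6 had opposite directions at the 2 times, below the mirror zone at 3 days and above it at 28 days, with intervals that excluded 0 at each time. The difference of the log2 ratios (28 days minus 3 days) was 0.93 for Slc1a2 and 1.52 for Gjb6. With 1 section per time the difference was not tested. The direction of Gjb6 at 3 days turned when the zone was drawn wider, to 0.50, and that of Slc1a2 at 28 days turned when UMIs were counted per bin, to -0.11.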

How the results depend on the processing

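Alternatives were edgeR's TMM scaling, UMIs per bin, no minimum or a minimum of 300 UMIs per bin, zone thresholds at the 95th percentile and at a stricter one, side lines moved by 16 columns, the whole opposite side or a class-weighted one as reference, only zone bins with a mirror bin, and ventricle and meninges tiles left out. Weighting to the classes of the lesion zone, leaving those tiles out, and matching classes bin by bin were chosen after seeing the data. A side line through the median Gbx2 UMI was the same as the line used. Over all of these, the zone ratios at 3 days stayed above 0 for Slc1a3 (0.38 to 1.31) and Aldh1l1 (0.95 to 1.77). Those of Aqp4 (0.03 to 1.48) did too, but the low end, per bin, was near 0. The ratios stayed below 0 for Slc1a2 (-1.39 to -0.51) and Slc6a11 (-2.55 to -1.15). At 28 days they stayed above 0 for Aqp4 (2.64 to 3.35), Slc1a3 (1.04 to 1.58), Gja1 (0.84 to 1.25), Gjb6 (0.38 to 1.21) and Aldh1l1 (0.89 to 1.28) and below 0 for Slc6a11 (-1.01 to -0.39). The median of the 9 members at 3 days, 0.55, became 0.42 with TMM, 0.42 at the stricter threshold, 0.28 against the whole opposite side, 0.21 with weighting to the mirror classes, -0.25 with weighting to the lesion classes and -0.076 per bin. At 28 days the median, 0.66, became 0.38 per bin, 1.21 with the side line 16 columns higher and 0.50 with weighting to the mirror classes. The median difference between the times, 0.58, became -0.074 at the 95th percentile, 0.92 per bin, 0.86 at the stricter threshold, 0.75 with the side line 16 columns higher, 1.18 against the whole opposite side, and 1.02 and 1.51 with weighting to the mirror and the lesion classes. The cause of each shift was not tested. Among ratios whose interval excluded 0, counting per bin turned the zone ratio for Kcnj10 (-0.023), Gja1 (-0.076) and Glul (-0.15) at 3 days and for Slc1a2 (-0.11) and Kcnj10 (-0.016) at 28 days, and the difference turned for Kcnj10 (0.0062). With weighting to the lesion classes Gja1 (-0.62) and Glul (-0.25) turned at 3 days, as did the difference of Glul (0.21), and with weighting to the mirror classes Gja1 turned (-0.016). At the 95th percentile Gjb6 turned at 3 days (0.50), as did the differences of Slc1a3 (-0.10) and Gja1 (-0.074). The difference of Slc1a3 also turned with only mirrored bins (-0.064) and without ventricle and meninges tiles (-0.15). In the inner bands counting per bin turned Aqp4 (-0.013) and Gja1 (-0.051) at 0 to 200 µm and Gja1 (-1.11) beyond 400 µm at 3 days, and Kcnj10 (-0.034) at 0 to 200 µm and Glul (-0.16) beyond 400 µm at 28 days. In the outer bands, counting per bin turned Slc1a2 (0.16) and Glul (0.12) at 250 to 500 µm at 3 days, and at 28 days Slc1a2 (-0.17) and Kcnj10 (-0.13) at 0 to 250 µm, Slc1a2 (-0.045) at 250 to 500 µm, and Slc1a3 (-0.061) and Slc6a11 (-0.017) at 500 to 1000 µm. The 95th percentile turned Slc6a11 at 0 to 250 µm (0.020) and at 250 to 500 µm (-0.074) and Slc1a3 at 250 to 500 µm (-0.13) at 3 days, and Slc1a2 (-0.035) and Gja1 (-0.046) at 250 to 500 µm at 28 days. At 3 days in Baiap3 tiles matched bins turned Gjb6 (-0.031) and Slc6a11 (-0.17). Leaving the zone and its surroundings in turned the side ratio of Glul in Cux2 tiles at 3 days (-0.032), of Slc6a11 in Fezf2 tiles at 28 days (0.047) and of Gja1 (0.63) and Gjb6 (0.49) in Drd1 tiles at 28 days. In Ttr tiles it turned Gjb6 (-0.14) and Slc6a11 (-0.26) at 3 days and Aqp4 (1.46), Slc1a2 (0.16) and Slc6a11 (-0.25) at 28 days, in Dcn tiles Glul (-0.084) and Slc6a11 (-0.32) at 28 days, and in Spink8 tiles Aqp4 (0.54) and Slc1a2 (0.0032) at 28 days. Matched bins turned Slc1a2 (0.14) and Kcnj10 (-0.22) in Ttr tiles at 3 days and Slc1a2 (-0.086) and Slc6a11 (-0.15) in Dcn tiles at 28 days. Without thinning, the endothelial ratio of Slc6a11 on the opposite side at 28 days was -0.075. With a minimum of 20 UMIs, 17.5% and 16.5% of genes were at or above 1 at 3 and 28 days. No paired analysis was possible because each group had 1 section. Depth limits most the core of the 3 days zone, where Aqp4, Kcnj10, Gjb6, Aldh1l1 and Slc6a11 each had under 10 UMIs.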
